A study of Mus musculus with 1483 samples.

Results

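The cells described here are cortical neurons sorted from mice that carried the enhancer hDLXI56i, divided into sets that were chosen by the measured levels of 2 genes that mark the origins of inhibitory neurons. Cells with Lhx6 at 10 CPM (reads of a gene scaled to a common total per cell) or more and Adarb2 under 10 CPM are called Lhx6 cells, and cells with Adarb2 at 10 CPM or more and Lhx6 under 10 CPM are called Adarb2 cells. There were 75 Lhx6 cells and 64 Adarb2 cells, which together made 139 of the 142 cells of this enhancer and of the 1483 cells measured in all. A further 1 cell had both genes and 2 had neither.

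Each animal of the study, of strain C57Bl/6J, carried a viral reporter in which 1 of 11 enhancers drove the yellow fluorescent protein SYFP2, and single fluorescent cells were flow sorted from tissue that the labels call VISp, the usual short form for the primary visual area. Polyadenylated RNA of every cell was made into its own SMARTer v4 library. The enhancer hDLXI56i was carried by 3 mice, named MouseID-382159, MouseID-384912 and MouseID-400157, and values for the mice are given in that order throughout. The mice carried no other allele or treatment in the labels, and their age is not given in the sources used here. The sorted cells are those in which the reporter lit up, and are not a sample of all neurons of the tissue. Per mouse there were 23, 27 and 25 Lhx6 cells and 23, 20 and 21 Adarb2 cells.

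Most inhibitory neurons of the cortex are born in the medial or the caudal ganglionic eminence of the embryo and migrate into the cortex from there. Neurons of the medial eminence keep the LIM-homeodomain factor LHX6 and mature mainly into cells that make parvalbumin (Pvalb) or somatostatin (Sst). Neurons of the caudal eminence include the Lamp5, Vip and Sncg classes, for which Adarb2, a member of the RNA-editing enzyme family, is a common marker. hDLXI56i is an intergenic element of the DLX homeobox gene cluster, and elements of that cluster are known to be active in forebrain inhibitory neurons of both origins.

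Lhx6 (chromosome 2, 36081950 to 36105992 in the mouse assembly GRCm38.p6) and Adarb2 (chromosome 13, 8202526 to 8768762) were the genes by which the cells were chosen, so their values are a description and carry no test. In Lhx6 cells, Lhx6 ran from 10.1 to 543 CPM over cells with a median of 123. Its mean per mouse was 119, 104 and 201 CPM there and 0 CPM in the Adarb2 cells of every mouse. In Adarb2 cells, Adarb2 ran from 77.2 to 4816 CPM with a median of 651. Its mean per mouse was 534, 793 and 1482 CPM there, and 0, 0.167 and 0 CPM in Lhx6 cells. Few cells lay near the threshold. The lowest Lhx6 values above it were 10.1 and 13.2 CPM, and the highest below it was 1.75 CPM. For Adarb2 the lowest value above was 25.2 CPM, in the cell that had both genes, and the highest below was 4.52 CPM.

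Depth was alike in the sets. Median reads per cell were 575660 in Lhx6 cells and 579100 in Adarb2 cells, so that in a typical cell the threshold stood for several reads, and 1 cell of each set had fewer than 100000 reads. The median number of genes per cell, averaged over mice, was 8978 ± 782 in Lhx6 cells and 8635 ± 469 in Adarb2 cells (SD, n = 3), higher in Lhx6 cells in 3 of 3 mice (two-sided exact paired permutation p = 0.25, the smallest that 3 pairs allow). Lhx6 cells made 52.8% ± 3.67 and Adarb2 cells 45.1% ± 3.65 of a mouse's cells (SD, n = 3). They were higher for Lhx6 cells in 2 of 3 mice (two-sided exact paired permutation p = 0.5).

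Sox6 and Prox1, which the choice of cells did not use, divided the same cells. SOX6 acts downstream of LHX6 in neurons of the medial eminence, and PROX1 is a homeobox factor of neurons of the caudal eminence. At 10 CPM or more, Sox6 (chromosome 7, 115470872 to 116040776) was found in 72 of 75 Lhx6 cells and 1 of 64 Adarb2 cells. Prox1 (chromosome 1, 190118035 to 190170827) was found in 55 of 64 Adarb2 cells and in 0 of 75 Lhx6 cells, which allows a share of up to 4%. Mean Sox6 was 179, 194 and 142 CPM in Lhx6 cells against 1, 0.187 and 0 CPM in Adarb2 cells. Mean Prox1 was 0 CPM in the Lhx6 cells of every mouse and 55.5, 78.9 and 94.6 CPM in Adarb2 cells. For both genes the sets did not overlap over mice. Both passed limma's paired test, with adjusted p = 0.000313 for Sox6 and 0.000744 for Prox1. The labels Lhx6 and Adarb2 thus had the markers that go with each.

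**Figure D1:**
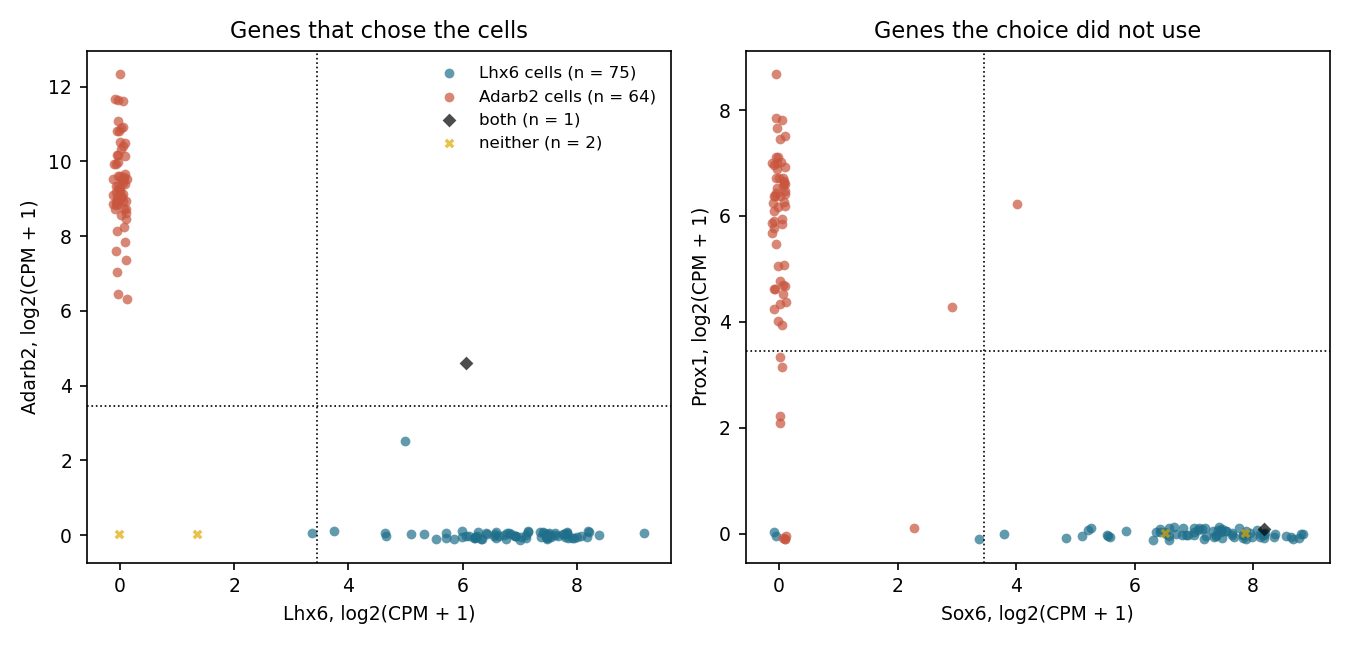
Every cell of the hDLXI56i mice as 1 point, by Lhx6 and Adarb2 (left) and by Sox6 and Prox1 (right), on a log2(CPM + 1) scale with a small random shift so that points at 0 can be seen; dotted lines mark 10 CPM. The 75 Lhx6 cells and 64 Adarb2 cells lie along separate axes on the left, and most of them do on the right. There, 3 Lhx6 cells and 9 Adarb2 cells have neither gene at 10 CPM, and 1 Adarb2 cell has both. The 3 cells outside the sets lie with the Lhx6 cells by Sox6.

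The cells whose second marker was under 10 CPM (Prox1 at most 9.80 CPM, Sox6 at most 9.32 CPM) kept other genes of their set. All 9 Adarb2 cells without Prox1 at 10 CPM had Nfib (189 to 1278 CPM), Nfix (157 to 656 CPM) and Nr2f2 (28.1 to 246 CPM), and none had Sox6 at 10 CPM. Of these 9 cells, 8 had Lamp5 and 8 had Npy. The 3 Lhx6 cells without Sox6 at 10 CPM, all from MouseID-400157, had Satb1 (644 to 1030 CPM), Sst (178 to 4335 CPM) and Pvalb (12.5 to 128 CPM), and none had Prox1, Nfib or Nfix at 10 CPM. Over the whole table, Sox6 was the 1 gene besides Lhx6 and Adarb2 that reached 10 CPM in at least 95% of the cells of 1 set and at most 5% of the other. Looser limits would add others, such as Cryab, in 61 of 64 Adarb2 cells and 4 of 75 Lhx6 cells, and Nfix, in 64 and 7.

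Differences between the sets were tested over the 3 mice, not over cells. The mean CPM of each gene was taken per mouse and set, and limma compared log2(mean CPM + 1) within mice. A gene was called when its Benjamini-Hochberg adjusted p was under 0.05 and its log2 difference at least 1 in size. Log2 differences are Lhx6 cells minus Adarb2 cells, with their standard errors (SE), and the added 1 CPM makes them too small for genes of low level. Where a set is listed at 0 in every mouse, only the levels and the adjusted p are given. Of 15667 genes tested, 446 were higher in Lhx6 cells (2.85%) and 480 were higher in Adarb2 cells (3.06%). All 926 had the same direction in 3 of 3 mice, which a call over 3 pairs nearly requires, so it is no further support. Of them, 894 had sets that did not overlap, as 21.4% of all genes tested did, and the call favours this too. Without MouseID-384912 the counts were 123 and 138, and without MouseID-382159 they were 152 and 187. These p-values describe the spread over 3 animals whose cells also carry a library prefix of their own, so that mouse and library batch cannot be told apart.

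The largest differences in each direction were those of class markers. Sst (chromosome 16, 23889573 to 23891342), the peptide of the somatostatin class, averaged 3094, 5829 and 6751 CPM in Lhx6 cells and was at 0 in every Adarb2 cell (adjusted p = 9.68e-06). Lamp5 (chromosome 2, 136052025 to 136069917), a lysosome-associated membrane protein that names the Lamp5 class, averaged 1855, 1656 and 1231 CPM in Adarb2 cells against 1.56, 1.75 and 0 CPM in Lhx6 cells, a log2 difference of -9.67 (SE 0.25, adjusted p = 2.49e-05). Cplx3 (chromosome 9, 57599992 to 57606281), a complexin that binds the vesicle fusion machinery, averaged 729, 781 and 455 CPM in Adarb2 cells and 0, 0 and 0.545 CPM in Lhx6 cells (log2 difference -9.11, SE 0.36, adjusted p = 0.000128).

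The promoters of Sst and Cplx3 are shown because these genes stand first and second by size in their directions, a choice made after their values were seen, and each has a single entry in the RefSeq promoter table for GRCm38.p6. Each run is the 250 bases before the start given by that entry, on the gene's own (minus) strand, at chr16:23890845-23891094 and chr9:57606282-57606531. Capitals mark the cAMP response element TGACGTCA, which reads the same on both strands and through which Sst transcription is known to respond to cAMP.
Sst: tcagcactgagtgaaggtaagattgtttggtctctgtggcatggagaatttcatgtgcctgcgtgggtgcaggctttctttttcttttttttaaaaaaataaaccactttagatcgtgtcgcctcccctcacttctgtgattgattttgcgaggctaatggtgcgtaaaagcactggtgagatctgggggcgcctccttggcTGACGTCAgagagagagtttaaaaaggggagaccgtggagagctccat
Cplx3: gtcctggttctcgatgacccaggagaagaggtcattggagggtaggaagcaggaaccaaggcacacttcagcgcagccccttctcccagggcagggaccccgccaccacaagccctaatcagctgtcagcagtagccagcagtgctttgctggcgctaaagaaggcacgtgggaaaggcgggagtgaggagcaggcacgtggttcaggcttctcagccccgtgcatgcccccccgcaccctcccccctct
For Cplx3 the window borders the gene range given above, whereas for Sst it lies inside that range, which reaches further upstream than the start of the entry. The element begins 48 bases before that Sst start, at position -48, and these letters are not in the Cplx3 window. Of 32851 promoter windows of this length in the table, 1.55% held TGACGTCA. The homeodomain core TAATTA, searched in the same way, was in neither of the printed windows and in 4.84% of all windows. A match is a description of the letters and says nothing about what binds there.

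Among the 12 genes with the largest differences toward Lhx6 cells, 5 encode peptides or proteins that bind them. Crhbp, which binds corticotropin-releasing hormone, averaged 460, 783 and 619 CPM against 0 in every Adarb2 cell (adjusted p = 5.32e-05). Pdyn, the precursor of dynorphins, averaged 110, 333 and 527 CPM, and Cartpt, the precursor of CART peptides, 103, 307 and 172 CPM, with both at 0 in every Adarb2 cell (adjusted p = 0.000499 and 0.000424). Tac1, the precursor of substance P, averaged 605, 1122 and 544 CPM against 0, 0 and 1.40 CPM (log2 difference 9.07, SE 0.44, adjusted p = 0.000272). The calcium-binding protein Calb1 was at 1664, 1391 and 1568 CPM against 0.0822, 0 and 10.3 CPM. The remaining ones were Pvalb, Lgals1 (a galectin), Sox6, Moxd1, the kinase Nek7 and the retinol-binding protein Rbp4, with log2 differences from 6.01 for Rbp4 to 8.5 for Pvalb. From medians over cells in place of means, Tac1 and Pvalb did not pass (adjusted p = 0.224 and 0.0531).

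Toward Adarb2 cells the 12 genes were led by Lamp5, Cplx3 and the small heat shock protein Cryab. Cryab averaged 596, 560 and 373 CPM in Adarb2 cells against 2.87, 1.68 and 0.668 CPM in Lhx6 cells (log2 difference -7.60, SE 0.25, adjusted p = 5.32e-05). Cacna2d1, an auxiliary subunit of voltage-gated calcium channels, averaged 301, 261 and 181 CPM against 1.96, 0.259 and 0.246 CPM (log2 difference -7.19, SE 0.34, adjusted p = 0.000272). Tnnt1 (a troponin), Nov (a secreted matrix protein that RefSeq lists as Ccn3), Atp6ap1l, Thrsp, the transcription factor Nfix, the phosphodiesterase Pde11a and the carbonic anhydrase Car4 had log2 differences from -6.52 for Car4 to -7.51 for Tnnt1. The chemokine Cxcl14 was the least even of them, at 45.6, 100.7 and 927 CPM in Adarb2 cells, and its call ended without MouseID-384912 (adjusted p = 0.0748).

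**Figure D2:**
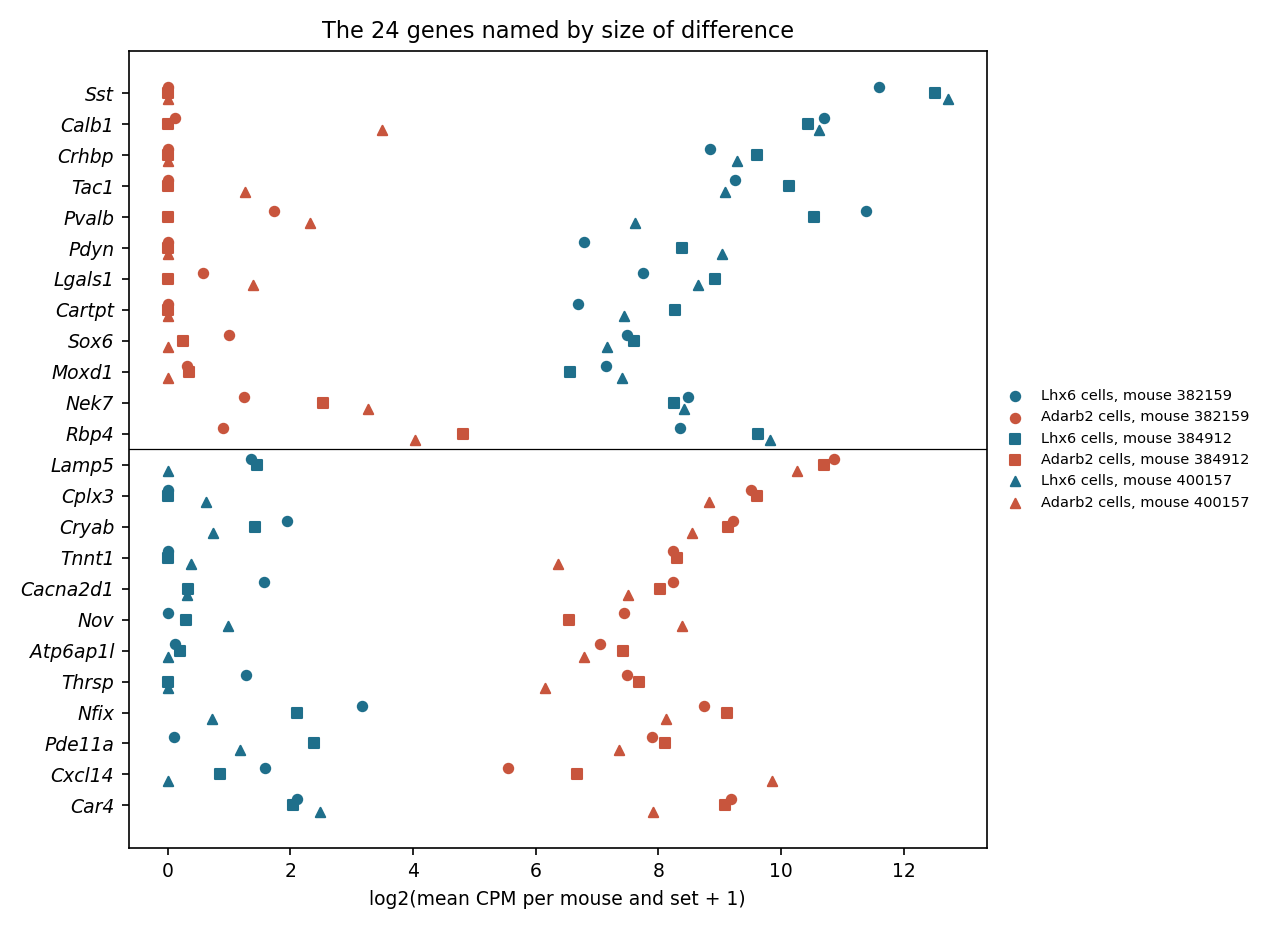
Mean CPM of the 12 most different genes in each direction, 1 point per mouse and set, on a log2(mean CPM + 1) axis; blue points are Lhx6 cells, red points Adarb2 cells, and shapes are the mice. The genes were chosen among those called with 1 direction in 3 of 3 mice, which favours sets that lie apart. For each of the 24 genes all 3 points of 1 set lie above all 3 of the other, and Cxcl14 spreads from 45.6 to 927 CPM within Adarb2 cells.

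Neither set was a single cell class, and the mix shifted between mice. Of the 75 Lhx6 cells, 39 had Pvalb without Sst, 16 had Sst without Pvalb, 20 had both and none had neither at 10 CPM. Of the 64 Adarb2 cells, 53 had Lamp5, 9 had Vip, none had both, and 2 had neither. Lhx6 cells with Pvalb but no Sst made 73.9%, 55.6% and 28% of the set per mouse. Adarb2 cells with Lamp5 made 95.7%, 90% and 61.9%, and those with Vip 0%, 10% and 33.3%. Mouse MouseID-400157 thus had the smallest share of Pvalb-only cells and the largest share of Vip cells. It also had the lowest mean Pvalb in Lhx6 cells, where the values were 2682, 1481 and 196 CPM. Their part in the results of single genes was not tested, other than by leaving each mouse out.

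**Figure D3:**
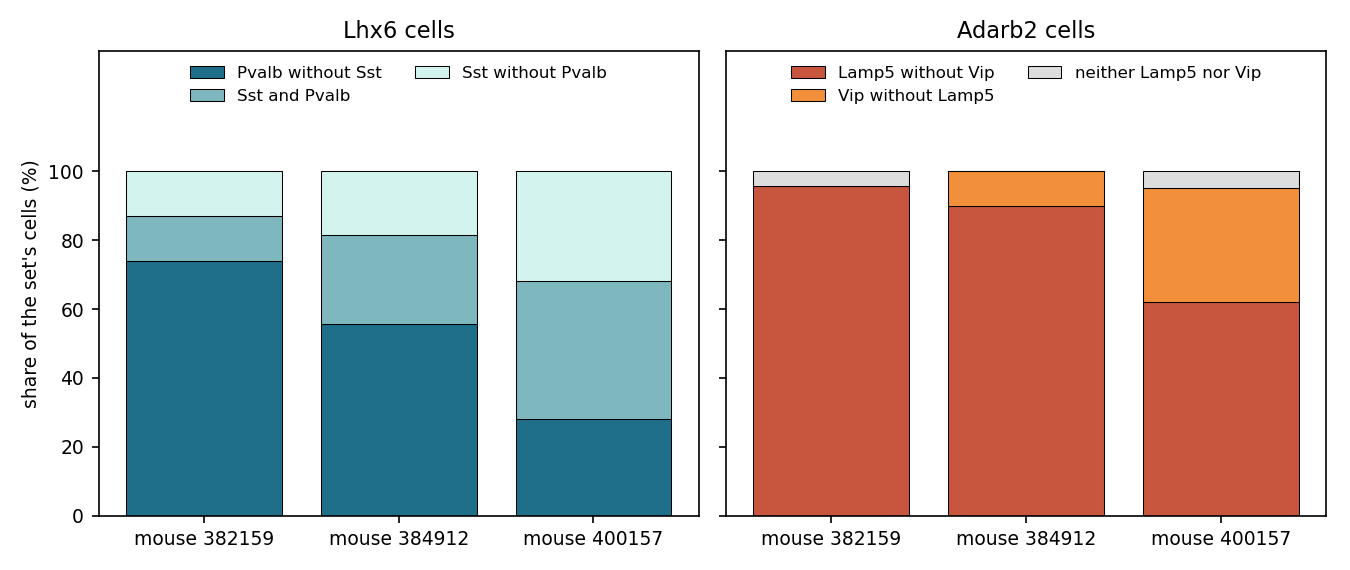
Share of each set's cells in each mouse (%) by class markers at 10 CPM or more, as stacked bars from 0; Lhx6 cells by Pvalb and Sst, Adarb2 cells by Lamp5 and Vip. Pvalb-only cells are 73.9% in MouseID-382159 and 28% in MouseID-400157, and Vip cells are 0% and 33.3% in the same mice.

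Not all markers of these classes were called. For this list and those below, the share called over all genes tested was 2.85% toward Lhx6 cells and 3.06% toward Adarb2 cells. Of 7 Pvalb class markers, all tested, 4 were higher in Lhx6 cells: Pvalb, Tac1, the synaptic calcium sensor Syt2 and the lipase Lpl. Pthlh, Kcns3 and Cox6a2 were not called. Kcns3 was at 116, 90.9 and 70.2 CPM in Lhx6 cells and 99.4, 89.0 and 73.4 CPM in Adarb2 cells. Pthlh was at 26.1, 59.6 and 48.6 CPM against 3.81, 12.1 and 243 CPM. Cox6a2 reached 10 CPM in 48 of 75 Lhx6 cells and 56 of 64 Adarb2 cells. Of 8 Sst class markers 7 were tested and 5 were higher in Lhx6 cells, among them the NMDA receptor subunit Grin3a at 95.5, 163 and 335 CPM against 18.4, 28.3 and 50.8 CPM (log2 difference 2.50, SE 0.18, adjusted p = 0.00089). Crh, the corticotropin-releasing hormone, stood on the same list and went the other way, at 0, 41.1 and 242 CPM in Lhx6 cells and 3.06, 256 and 880 CPM in Adarb2 cells (log2 difference -2.16, SE 0.24, adjusted p = 0.0043). Without MouseID-384912 its adjusted p was 0.0602, and without the pairing by mouse 0.844. Crh reached 10 CPM in 9 of 75 Lhx6 cells and 10 of 64 Adarb2 cells. In Adarb2 cells Crh was found in 9 of 9 cells with Vip and in 0 of 53 with Lamp5. Nos1, also on the Sst list, was not called, and reached 10 CPM in 16 of 75 Lhx6 cells and 45 of 64 Adarb2 cells. The calls of Syt2, Cbln4 and Hpse ended without MouseID-382159 or MouseID-384912, and that of Hpse also without MouseID-400157. Grin3a and Lpl did not pass from medians over cells (adjusted p = 0.263 and 0.283).

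The Lamp5 class gave the most uniform list, with 7 of 8 tested members higher in Adarb2 cells and none higher in Lhx6 cells, against 3.06% of all genes. Besides Lamp5 and Cplx3 these were Id2, Npy, Ndnf, Reln and Lsp1, and each kept its call without any 1 mouse. From medians over cells, Reln and Lsp1 did not pass (adjusted p = 0.542 and 0.236). Without the pairing by mouse, Reln did not pass either (adjusted p = 0.242). Id2, an inhibitor of basic helix-loop-helix factors, averaged 1906, 1627 and 885 CPM in Adarb2 cells and 37.1, 41 and 32.5 CPM in Lhx6 cells (log2 difference -5.22, SE 0.19, adjusted p = 7.85e-05). Npy, neuropeptide Y, averaged 36782, 39842 and 11636 CPM against 1754, 4928 and 2429 CPM (log2 difference -3.22, SE 0.40, adjusted p = 0.0163, and 0.056 with no filter on low values). Npy was thus abundant on both sides: it was found in 57 of 64 Adarb2 cells and in 49 of 75 Lhx6 cells, 30 of them with Sst. Reln, a secreted matrix protein, had the smallest difference of the called members, at 147, 275 and 571 CPM against 57.0, 104 and 246 CPM (log2 difference -1.32, SE 0.13, adjusted p = 0.00249).

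Vip class markers were uneven over mice. Vip averaged 0, 2372 and 8812 CPM in Adarb2 cells and was at 0 in every Lhx6 cell, and it did not pass the test (adjusted p = 0.157). Without MouseID-382159, which had no Vip cell, it did (adjusted p = 0.00122). Of 6 Vip class markers tested out of 7, the 1 called was Cxcl14, against 3.06% of all genes called toward Adarb2 cells. Of 3 Sncg class markers tested out of 5 none was called. Sncg itself reached 10 CPM in 2 Adarb2 cells.

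Of 12 transcription factors and other regulators linked to the medial eminence, 9 passed the filter on low values, and 6 were higher in Lhx6 cells and none in Adarb2 cells. Satb1, a chromatin organizer of somatostatin and parvalbumin neurons, averaged 180, 342 and 547 CPM against 0.141, 10.2 and 15.3 CPM (log2 difference 5.77, SE 0.47, adjusted p = 0.00135). It reached 10 CPM in 75 of 75 Lhx6 cells and in 8 of 64 Adarb2 cells, 5 of which had Vip. The ETS factor Etv1 averaged 65.5, 37.4 and 71.5 CPM against 2, 3.35 and 2.61 CPM (log2 difference 3.98, SE 0.41, adjusted p = 0.00315). Smaller differences were those of Lmo3 (log2 difference 2.01, SE 0.26) and Elfn1 (2.85, SE 0.65), and these calls ended without MouseID-382159. Maf was at 97.6, 77.8 and 39.2 CPM against 106, 109 and 63.7 CPM (adjusted p = 0.241), and Zeb2 at 171, 164 and 170 CPM against 129, 162 and 300 CPM (adjusted p = 0.819). Nkx2-1, Lhx8 and Gbx2, regulators of the embryonic eminence and its subpallial derivatives, did not pass the filter, and Lhx8 and Gbx2 were at 0 in all cells of both sets.

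Of 12 regulators linked to the caudal eminence, all tested, 7 were higher in Adarb2 cells and none in Lhx6 cells. The nuclear factor Nfib averaged 674, 803 and 427 CPM against 7.83, 20.8 and 12.9 CPM (log2 difference -5.47, SE 0.27, adjusted p = 0.000272). Nfix averaged 426, 558 and 278 CPM against 8.01, 3.33 and 0.645 CPM (log2 difference -6.66, SE 0.37, adjusted p = 0.000388), and reached 10 CPM in 64 of 64 Adarb2 cells and 7 of 75 Lhx6 cells. The orphan nuclear receptors Nr2f1 and Nr2f2, known as COUP-TF proteins, were less exclusive. Nr2f2 averaged 28.7, 63.3 and 104 CPM against 5.65, 8.25 and 24.2 CPM (log2 difference -2.34, SE 0.29, adjusted p = 0.00659), and all 9 Lhx6 cells that had it also had Sst. The zinc-finger factor Zbtb16 averaged 139, 149 and 298 CPM against 34.5, 39.4 and 43.5 CPM (log2 difference -2.21, SE 0.22, adjusted p = 0.00259), and Sp8 13.4, 6.14 and 8.72 CPM against 0 in every Lhx6 cell (adjusted p = 0.013). The calls of Nr2f1, Nr2f2 and Sp8 ended without MouseID-384912. Npas1 and Npas3, also on this list, were not called. Npas1 was at 7.43, 30.2 and 98.8 CPM in Lhx6 cells and 2.64, 27 and 86.5 CPM in Adarb2 cells (adjusted p = 0.42). Npas3 was at 40.8, 130 and 225 CPM against 24.3, 90.2 and 252 CPM. Both reached 10 CPM in a larger share of Lhx6 cells. Npas1 did so in 27 of 75 Lhx6 cells and 13 of 64 Adarb2 cells, and Npas3 in 50 and 21.

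**Figure D4:**
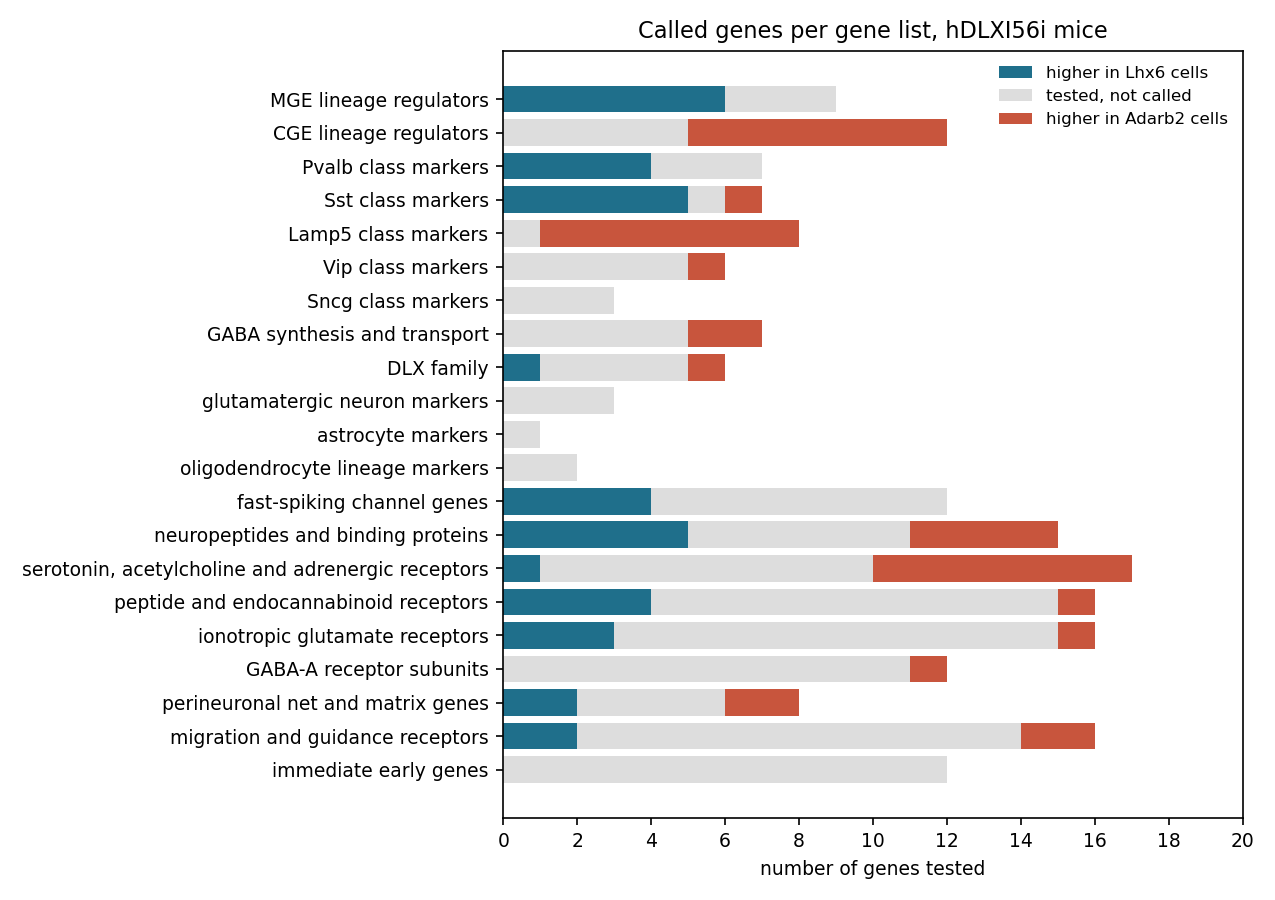
Number of genes tested in each list, split into those called higher in Lhx6 cells (blue), not called (grey) and called higher in Adarb2 cells (red); lists with no gene tested are left out. Lamp5 class markers and regulators of the caudal eminence are called toward Adarb2 cells alone (7 each), regulators of the medial eminence toward Lhx6 cells alone (6), and no immediate early gene is called. Over all genes tested, 2.85% are called toward Lhx6 cells and 3.06% toward Adarb2 cells.

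Of 7 genes of GABA synthesis, transport and breakdown, all tested, Gad1 and Gad2 were higher in Adarb2 cells, none was called higher in Lhx6 cells, and 5 were not called. Gad1 and Gad2, which make GABA from glutamate, reached 10 CPM in every cell of both sets. Gad1 averaged 1311, 1071 and 1825 CPM in Lhx6 cells and 3036, 2694 and 4089 CPM in Adarb2 cells (log2 difference -1.23, SE 0.08, adjusted p = 0.000562). Gad2 averaged 396, 683 and 881 CPM against 1944, 2176 and 1613 CPM (log2 difference -1.61, SE 0.24, adjusted p = 0.0119), a call that ended without MouseID-384912 (adjusted p = 0.0981). The vesicular GABA transporter Slc32a1 was at 72.9, 67.4 and 56.8 CPM against 79.1, 65.4 and 52.9 CPM, a log2 difference of 0.01 (SE 0.18, adjusted p = 0.988). Abat, which breaks GABA down, was at 219, 200.2 and 299.5 CPM in Lhx6 cells and 109, 120.0 and 185 CPM in Adarb2 cells, without overlap. Its log2 difference of 0.81 (SE 0.14, adjusted p = 0.0176) was under the size needed for a call, which it reached from medians over cells (1.07, adjusted p = 0.0298). The Gad1 levels were not even within Adarb2 cells: those with Lamp5 averaged 3096, 2859 and 5042 CPM, and those with Vip 1202 and 2486 CPM in the 2 mice that had them.

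Of the DLX genes, from whose family the enhancer comes, Dlx1, Dlx2, Dlx5 and Dlx6 were not called, with Dlx1 at 44.3, 46.3 and 61.0 CPM in Lhx6 cells and 62.7, 80.1 and 84.6 CPM in Adarb2 cells (log2 difference -0.58, SE 0.19, adjusted p = 0.129). Dlx6os1, a long noncoding RNA of the cluster, was at 95.9, 95.5 and 139 CPM against 408, 427 and 737 CPM (log2 difference -2.21, SE 0.13, adjusted p = 0.000424). It lies antisense to Dlx6, and whether the counting used strand is not given in the sources used here.

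Of 17 neuropeptides and peptide-binding proteins, 15 were tested, 5 were higher in Lhx6 cells and 4 in Adarb2 cells. Toward Lhx6 cells these were Sst, Tac1, Pdyn, Crhbp and Cort, and toward Adarb2 cells Npy, Pnoc, Crh and Trh. Pnoc, the precursor of nociceptin, averaged 8.87, 23.9 and 27.1 CPM in Lhx6 cells and 673, 599 and 390 CPM in Adarb2 cells (log2 difference -4.83, SE 0.39, adjusted p = 0.00138), and reached 10 CPM in 64 of 64 Adarb2 cells. Cort, cortistatin, averaged 586, 382 and 379 CPM against 100, 133 and 91.3 CPM (log2 difference 2.03, SE 0.20, adjusted p = 0.0026, and 0.0634 from medians over cells). Peptides were divided within Lhx6 cells as well. Pdyn reached 10 CPM in 16 of the 36 cells with Sst and in 0 of the 39 without, and Tac1 in 6 of the 36 and 34 of the 39. Cck, cholecystokinin, was found in 38 of those 39 cells and 5 of those 36, and did not differ by the test between Lhx6 and Adarb2 cells (adjusted p = 0.329). Calls of Crh and Trh ended without MouseID-384912.

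Of 19 receptor genes for serotonin, acetylcholine and noradrenaline, 17 were tested, 7 were higher in Adarb2 cells, 1, the muscarinic receptor Chrm2, was higher in Lhx6 cells, and 9 were not called. The alpha-1B adrenergic receptor Adra1b averaged 3.13, 3.25 and 4.93 CPM in Lhx6 cells and 61.2, 49.7 and 156 CPM in Adarb2 cells (log2 difference -4.07, SE 0.35, adjusted p = 0.00177). The nicotinic subunit Chrna5 was at 0 in every Lhx6 cell and at 16.2, 27 and 25.2 CPM in Adarb2 cells (adjusted p = 0.00342). These calls held without any 1 mouse, whereas those of Htr1f, Htr2a, Chrna4, Chrna7, Adra1a and Chrm2 ended without MouseID-384912 and, for some, without another mouse. Htr3a, the ionotropic serotonin receptor often used to mark neurons of the caudal eminence, reached 10 CPM in 16 of 64 Adarb2 cells and was at 17.6, 3.88 and 546 CPM there against 2.32, 0 and 0 CPM (adjusted p = 0.0849).

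Of 20 peptide and endocannabinoid receptors 16 were tested. Of these, 4 were higher in Lhx6 cells and 1 in Adarb2 cells, against 2.85% and 3.06% of all genes. The delta opioid receptor Oprd1 averaged 29.9, 23.7 and 34.6 CPM in Lhx6 cells and was at 0 in every Adarb2 cell (adjusted p = 0.00224). The cholecystokinin receptor Cckbr averaged 31.8, 16.3 and 42 CPM against 0, 0.336 and 0 CPM (log2 difference 4.72, SE 0.53, adjusted p = 0.00453). Neither Oprd1 nor Cckbr passed from medians over cells (adjusted p = 0.260 and 0.300). Tachykinin receptors Tacr1 and Tacr3 were the other two, and both lost the call without MouseID-382159 or MouseID-384912. The neuropeptide Y receptor Npy1r averaged 0, 0 and 7.23 CPM in Lhx6 cells and 19.8, 24.5 and 64.9 CPM in Adarb2 cells (log2 difference -4.02, SE 0.50, adjusted p = 0.00629). Within Adarb2 cells it was found in 8 of 9 cells with Vip and 7 of 53 with Lamp5, and its call ended under limma voom (adjusted p = 0.105). The cannabinoid receptor Cnr1 was higher in Adarb2 cells in 3 of 3 mice, at 312, 167 and 918 CPM against 4.74, 88.0 and 115 CPM, without passing the test (adjusted p = 0.112).

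Of 12 channel genes linked to fast spiking, all tested, 4 were higher in Lhx6 cells and none in Adarb2 cells. The potassium channel Kcnc2, of the Kv3 family that lets neurons fire quickly, averaged 563, 561 and 711 CPM in Lhx6 cells and 19.5, 73 and 127 CPM in Adarb2 cells (log2 difference 3.39, SE 0.40, adjusted p = 0.00523). It reached 10 CPM in all 75 Lhx6 cells, with Sst or without. The others were Kcna2, Kcnab1 and Kcnab3, with log2 differences of 1.12 (SE 0.13), 1.61 (SE 0.27) and 1.85 (SE 0.20), and Kcna2 and Kcnab1 lost the call without MouseID-384912. Kcnc2, Kcnab1 and Kcnab3 did not pass from medians over cells (adjusted p = 0.0838, 0.0821 and 0.0838). The related Kcnc1 was at 492, 367 and 319 CPM against 209, 283 and 211 CPM (log2 difference 0.73, SE 0.18, adjusted p = 0.0561).

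Ionotropic glutamate receptors differed by subunit. Of 17 genes 16 were tested, 3 were higher in Lhx6 cells and 1 in Adarb2 cells, against 2.85% and 3.06% of all genes. The AMPA receptor subunit Gria1 averaged 521, 508 and 611 CPM against 121, 149 and 288 CPM (log2 difference 1.65, SE 0.19, adjusted p = 0.00522), whereas Gria2 was at 512, 462 and 645 CPM against 437, 468 and 829 CPM (log2 difference -0.05, SE 0.13, adjusted p = 0.888). The kainate receptor subunit Grik3 averaged 32.4, 47.8 and 50.3 CPM against 0.739, 1.58 and 1.81 CPM (log2 difference 4.23, SE 0.39, adjusted p = 0.00212, and 0.0762 from medians over cells). The NMDA receptor subunit Grin2a went the other way, at 149, 79.1 and 74.3 CPM against 326, 340 and 243 CPM (log2 difference -1.64, SE 0.20, adjusted p = 0.00548). Without MouseID-384912 the adjusted p was 0.0642 for Gria1 and 0.0514 for Grin2a. Of 12 GABA-A receptor subunits tested out of 14, the 1 called was Gabra5, against 3.06% of all genes called toward Adarb2 cells. Its receptors are known for tonic inhibition. Gabra5 was at 15.5, 26.9 and 13.6 CPM in Lhx6 cells and 233, 203 and 113 CPM in Adarb2 cells (log2 difference -3.22, SE 0.25, adjusted p = 0.00108). It reached 10 CPM in 0 of 9 Adarb2 cells with Vip.

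Matrix and guidance genes split in both directions. Of 8 perineuronal net and matrix genes tested out of 10, the lectican Bcan and the tenascin Tnr were higher in Lhx6 cells, and the lectican Vcan and the link protein Hapln1 in Adarb2 cells. Hapln1 averaged 16.4, 5.96 and 3.8 CPM in Lhx6 cells and 353, 320 and 239 CPM in Adarb2 cells (log2 difference -5.17, SE 0.30, adjusted p = 0.000424). Of 16 migration and guidance genes tested out of 17, Sema3a and Plxna4 were higher in Lhx6 cells and Sema3c and Unc5c in Adarb2 cells. The secreted semaphorin Sema3a averaged 47.5, 28.5 and 64.2 CPM against 0.934, 0 and 0.0822 CPM (log2 difference 5.15, SE 0.47, adjusted p = 0.00212, and 0.0834 from medians over cells). Its relative Sema3c averaged 0, 0.211 and 14.5 CPM against 99, 141 and 189 CPM (log2 difference -5.71, SE 0.64, adjusted p = 0.00451, and 0.0715 under limma voom). Erbb4, the neuregulin receptor, was not called (adjusted p = 0.715), yet varied within Lhx6 cells: those with Sst averaged 206, 200 and 328 CPM, and those without 1744, 1473 and 1795 CPM. The calls of Bcan, Tnr and Plxna4 ended without MouseID-384912. Bcan, Plxna4 and Unc5c did not pass from medians over cells (adjusted p = 0.0773, 0.0644 and 0.0650).

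Markers of other cell types were low in both sets, and none of those tested was called. The summed level of 9 glutamatergic neuron markers ranged from 58.6 to 83.7 CPM over mice in Lhx6 cells and from 73.3 to 125 CPM in Adarb2 cells, nearly all of it Camk2a and Nrgn, and Slc17a7, the defining vesicular glutamate transporter, averaged at most 2.87 CPM. Sums of 5 astrocyte markers were 2.21 to 6.07 and 7.28 to 13 CPM. Sums of 6 oligodendrocyte markers were 35.5 to 38.6 and 7.58 to 31.7 CPM, mostly Mbp, at 35.5, 36.7 and 31.8 CPM against 31.4, 4.86 and 5.25 CPM (adjusted p = 0.105). Microglia and vascular markers summed to at most 1.14 CPM, and Olig2, C1qa, C1qb, Tmem119 and Kcnj8 were at 0 in every cell of both sets. No immediate early gene was called among 12 tested, although Egr1 was at 311, 105 and 124 CPM in Lhx6 cells and 2.49, 11.4 and 129 CPM in Adarb2 cells (adjusted p = 0.208). Without MouseID-400157, Egr1, Fos and Arc were called higher in Lhx6 cells (adjusted p = 0.0205, 0.0227 and 0.0311).

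The same 2 thresholds were then applied to mice of other enhancers, whose cells the comparison above did not use. Those with at least 5 cells in each set were 3 mice of eHGT_017h and 1 of eHGT_058h. Their sets had another make-up. In the eHGT_017h mice, 96.7% to 100% of Lhx6 cells had Sst and 57.1% to 91.7% of Adarb2 cells had Vip, while in the eHGT_058h mouse 85.7% of Lhx6 cells had Pvalb without Sst and 100% of Adarb2 cells had Lamp5. Of 15922 genes tested there, 264 were higher in Lhx6 cells (1.66%) and 382 in Adarb2 cells (2.4%). Of the genes called in hDLXI56i mice, 909 were tested in both, and 851 of them (93.6%) had the same direction, against 65.4% of all genes tested in both. There were 344 genes called in both and in the same direction, which is 37.1% of those called in hDLXI56i mice and 53.3% of those called in the others, and none was called in opposite directions.

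All 24 genes named above by size had the same direction in the other mice, and 22 were called there, the exceptions being Lamp5 (adjusted p = 0.0656) and Cxcl14 (adjusted p = 0.0573). Sst had no reads in hDLXI56i Adarb2 cells and was called in the other mice too (adjusted p = 5.31e-06). Sox6 had a log2 difference of 6.04 (SE 0.72, adjusted p = 0.00318), and Prox1 an adjusted p of 0.000261. Over all cells of the other enhancers, Sox6 reached 10 CPM in 846 of 862 Lhx6 cells and 4 of 187 Adarb2 cells, and Prox1 in 1 and 160. Some genes called in hDLXI56i mice were not called in the other mice: Ndnf had a log2 difference of 0.09 (adjusted p = 0.987) there, Npy of -0.94 (adjusted p = 0.704) and Gabra5 of -0.38 (adjusted p = 0.828). Whether effects differ from those in hDLXI56i mice was tested for every gene. Of 17771 genes 1 passed, which was none of these, so a difference was not shown for them.

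**Figure D5:**
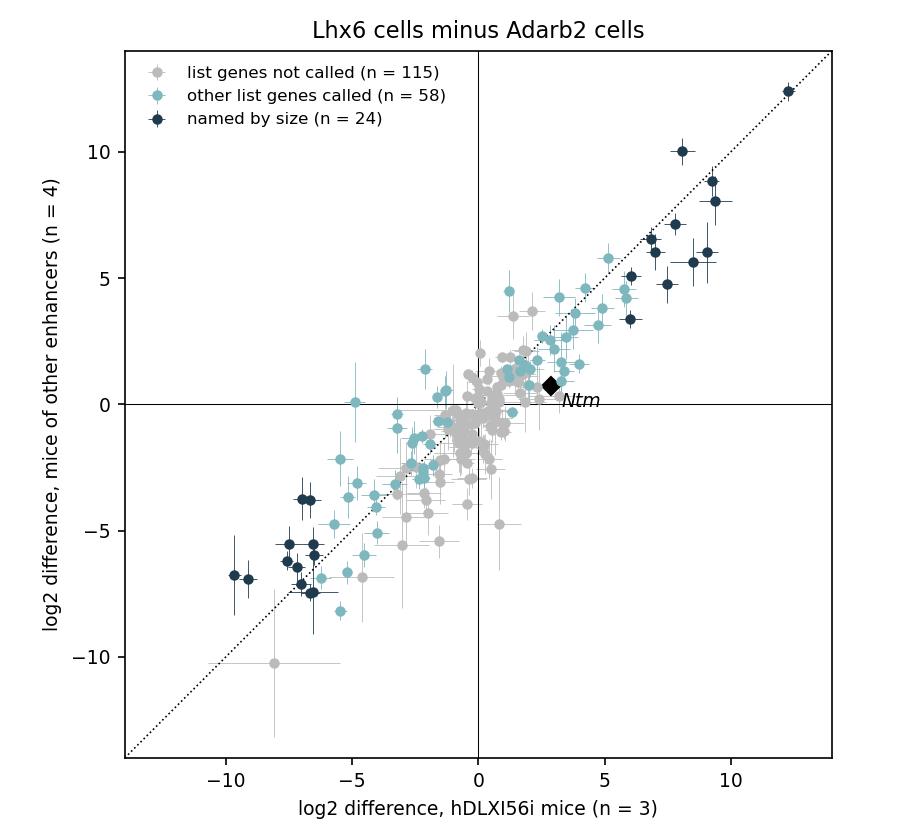
Log2 difference between Lhx6 and Adarb2 cells in the 3 hDLXI56i mice (horizontal) and in the 4 mice of other enhancers (vertical), 1 point per gene with bars of 1 SE; the dotted line marks equal values. All 24 genes named by size lie in the quadrants of equal sign, as do 52 of the 58 other called list genes, and Ntm is the 1 gene whose difference passed the test.

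That gene was Ntm (chromosome 9, 28994749 to 29963269), neurotrimin, a cell adhesion molecule of the immunoglobulin family. In hDLXI56i mice it averaged 639, 477 and 685 CPM in Lhx6 cells and 74.8, 76.9 and 87.5 CPM in Adarb2 cells. The 4 other mice had 496 to 672 CPM in Lhx6 cells and 270 to 430 CPM in Adarb2 cells, so that Lhx6 cells were at like levels and Adarb2 cells did not overlap between the enhancers. Log2 differences were 2.88 and 0.71, and they differed by 2.17 (SE 0.20, adjusted p = 0.00925, limma interaction). The mix of classes moved with this result, and its part was not tested as such. In hDLXI56i mice, Adarb2 cells with Lamp5 averaged 52.6, 54.1 and 91.2 CPM of Ntm. In the eHGT_058h mouse, where all 9 Adarb2 cells had Lamp5, the average was 270 CPM. The few Adarb2 cells with Lamp5 in eHGT_017h mice were lower, at 145 CPM in MouseID-408805 (1 cell) and 55.7 CPM in MouseID-410195 (3 cells). Adarb2 cells with Vip in the eHGT_017h mice averaged 345 to 550 CPM. The 2 and 7 Adarb2 cells with Vip in hDLXI56i mice averaged 282 and 88.2 CPM. The call ended without MouseID-382159, MouseID-384912, MouseID-406074, MouseID-408805 or MouseID-410195, with adjusted p from 0.0506 to 0.146, and the difference stayed between 2.07 and 2.31 in these fits. It fell to 0.41, without a call, with mice that had at least 3 cells in each set, 8 of them of other enhancers. At a threshold of 50 CPM the difference was 1.94 (adjusted p = 0.429, limma interaction).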

How the data were processed

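The authors deposited 1 table of CPM values (reads of a gene scaled to a common total per cell), with 1483 cells in rows and 45768 genes in columns. STAR and mm10 appear in the submitters' processing notes, without version. How reads were counted, with which annotation and after which cell filters, is not stated there. In every cell 100% of values were whole multiples of 1 read, within 0.01 read, which gave the reads per cell. Reads carry no molecular identifiers, so limits for counts of 0 (3 cells of the total) cover counting error only. No cell was filtered and no doublet caller was run.

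Mean CPM per mouse and set was compared by limma 3.58.1 (trend and robust, statmod 1.5.0, R 4.3.3) with the mouse as a block, on log2(mean CPM + 1), keeping a gene where 2 or more of its 6 values reached 1 CPM. The 2 sets of a mouse come from 1 animal, which is the pairing. Lhx6 and Adarb2 were left out of the fit. The effect in mice of other enhancers and its difference were fitted likewise. edgeR and DESeq2, planned for reads recovered from the CPM, were not run. limma voom on those reads was run in their place. The fit was tested on simulated data.

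The cells, gene lists (23, with 230 genes, of which 185 passed the filter) and tests were chosen with earlier results of these data known. Besides list members, the text names the 12 called genes of largest log2 difference on each side with a mean of at least 20 CPM in the higher set and 1 direction in 3 of 3 mice. Genes of the Y chromosome, Xist and Tsix were not named, nor were ribosomal protein genes, mitochondrial genes and those that lack an official symbol. Ntm was named because it alone passed its test. Gene positions and promoters are those of RefSeq for GRCm38.p6. Some list members are not reported here.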

Additional observations from a re-analysis of the deposited data

Results flagged for a closer look

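The difference between Lhx6 and Adarb2 cells in Ntm was larger in hDLXI56i mice than in the 4 mice of other enhancers by 2.17 on the log2 scale (SE 0.20, limma interaction, adjusted p = 0.00925), with Adarb2 cells at 74.8 to 87.5 CPM in 3 of 3 hDLXI56i mice and at 270 to 430 CPM in the 4 others. It was 1 of 17771 genes, and 1266 had an unadjusted p under 0.05. With mice that had at least 3 cells in each set, of which there were 8 of other enhancers, the difference was 0.41 (adjusted p = 1).

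The 3 cells outside the sets carried Sox6, a signal in cells that no comparison used. The cell with both genes, from MouseID-382159, had Lhx6 at 70.4 CPM, Adarb2 at 25.2 CPM, Sox6 at 310.3 CPM and Pvalb at 3534 CPM, with no Prox1. One cell with neither gene, from MouseID-384912, had Sox6 at 90.3 CPM, Pvalb at 134 CPM and Cck at 1711 CPM, with no Prox1. The other, from MouseID-400157, had Lhx6 at 1.75 CPM, Sox6 at 248 CPM, Sst at 11442 CPM and Npy at 3797 CPM, with no Prox1. By Sox6 all 3 stood with the Lhx6 cells, where the median was 163 CPM, and apart from the Adarb2 cells, where 1 of 64 reached 10 CPM.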

How the results depend on the processing

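Genes higher in Lhx6 cells were 446, and 123 to 407 with 1 mouse left out, 144 from medians over cells (9431 genes tested) and 291 by limma voom. Genes higher in Adarb2 cells were 480, and 138 to 367 with 1 mouse left out and 145 from medians. Called list genes were 34 toward Lhx6 cells, with 19 to 39 when a mouse was left out and 8 from medians, and 35 toward Adarb2 cells, with 24 to 37 and 20. With a pseudocount of 10, no filter, thresholds of 1 or 50 CPM, deep cells or cells without Slc17a7, these counts stayed within 1.5 times. With no replicate block, that is without the pairing by mouse, 412 and 450 genes were called, 789 of them among the 926. In the other mice, genes higher in Lhx6 cells were 264, but 140 with no filter, 468 with at least 3 cells per set, 453 without eHGT_058h and 78 to 453 with 1 mouse left out. Genes higher in Adarb2 cells were 382, with 228 for no filter and 141 to 570 with 1 mouse left out. Without eHGT_017h 1 mouse was left there and its own effect could not be tested. The fit of the difference still called 1 gene, which was not Ntm (1.81, adjusted p = 0.176). The 1 gene whose difference between enhancers passed became 0 with no filter, at 50 CPM and with at least 3 cells, 36 without eHGT_058h, and 0 to 36 with 1 mouse left out. The cause was not tested. Of the 24 genes named by size, Cxcl14 lost its call by voom and without MouseID-384912, and Tac1, Pvalb and Atp6ap1l from medians over cells. None of these 24 genes and none of the 58 other called list genes reversed under the alternatives run in hDLXI56i mice. The direction of the remaining called genes was not compared over them. edgeR and DESeq2 were not run. The voom fits and the mice left out of the last 2 comparisons were chosen after seeing the data.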
